A study of Mus musculus with 9 samples.

Results

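Distal neither-motif regions are stretches of the genome where MyoD1 peaks were called far from any transcript start of the GENCODE basic annotation and where neither the E-box that MyoD1 prefers nor the AP-1 motif was found. They were chosen by position and sequence. Overlapping or touching peaks of 6 CUT and RUN libraries were joined, and a joined region was kept when at least 2 of the 6 libraries had a peak in it. A kept region was distal when its centre lay more than 10 kb from every start in that annotation and it held no coding base. A distal region was a neither-motif region when its interval held no CAGCTG and no TGACTCA or TGAGTCA. There were 483 such regions, which is 9.55% of 5057 distal regions and 2.57% of 18773 kept regions. The other distal regions comprised 2119 with the E-box only, 406 with the AP-1 motif only and 2049 with both.

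All 6 libraries came from 1 genotype of C2C12, a myoblast line of the mouse. Its endogenous MyoD1 was 3xF-HaloTagged, and a 3xF-Halo-MyoD1 transgene driven by the TRE3GS promoter was present in addition. The endogenous tag was made by knock-in, and the tagged line was 1 clone. Cultures of both groups were moved to differentiation medium for 6 h, 3 replicates without doxycycline (no dox) and 3 with it (+dox), and tagged MyoD1 was mapped with an anti-Flag antibody. The question behind the comparison is where MyoD1 binds when its level is raised. Libraries of 3 untagged wild-type samples were not analysed here, so no antibody background stands beside any value.

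MyoD1 is a basic helix-loop-helix factor that binds DNA as a dimer, usually with an E protein such as Tcf3 or Tcf12. Its dimers recognise E-boxes, written CANNTG, and the form with G and C at the centre, CAGCTG, is the preferred one. AP-1 factors, the Fos and Jun families, are bZIP proteins that bind the heptamer TGACTCA or TGAGTCA at many active enhancers.

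The lists were unequal. The +dox replicate 3 held 53661 peaks at 8030000 alignments, and the other 5 libraries held between 9389 and 13877 peaks at 2868000 to 4667000 alignments. The lowest total signal in a list ranged from 336 to 904, so the lists shared no calling floor. Of the 483 neither-motif regions, 469 had a peak in +dox replicate 3. When that library was left out and regions were rebuilt from the other 5, 286 of 3181 distal regions (8.99%) were neither-motif regions. When every list was shortened to the length of the shortest, 191 of 3047 (6.27%) were.

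The sequences at the maxima of 7 neither-motif regions are shown because they cover the kinds of DNA found there: E-boxes with another centre, GC boxes, repeats, and none of these. Each is the plus strand of mm10 within 100 bp of the maximum, read from the RefSeq copy of the GRCm38 assembly, and cut short where an annotated exon began. Capitals mark E-boxes whose centre is not GC, and the GC box GGGCGG or CCGCCC that SP and KLF zinc-finger factors bind. The first 3 had a peak in all 6 libraries, and the other 4 had a peak in every +dox library and in no library without dox.
Zfp827 intron: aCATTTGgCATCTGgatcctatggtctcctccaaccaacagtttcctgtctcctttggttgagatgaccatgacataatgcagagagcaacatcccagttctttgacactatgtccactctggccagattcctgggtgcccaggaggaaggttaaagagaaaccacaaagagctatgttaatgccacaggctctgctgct
Dapk2 intron: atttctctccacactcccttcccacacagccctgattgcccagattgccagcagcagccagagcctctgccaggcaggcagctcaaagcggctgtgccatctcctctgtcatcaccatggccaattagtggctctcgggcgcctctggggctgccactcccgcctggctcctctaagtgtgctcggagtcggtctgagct
Aida intron: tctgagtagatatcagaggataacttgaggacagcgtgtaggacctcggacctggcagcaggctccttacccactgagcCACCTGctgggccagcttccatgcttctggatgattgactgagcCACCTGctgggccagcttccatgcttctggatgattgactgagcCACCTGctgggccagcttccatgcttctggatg
Brwd3 intron: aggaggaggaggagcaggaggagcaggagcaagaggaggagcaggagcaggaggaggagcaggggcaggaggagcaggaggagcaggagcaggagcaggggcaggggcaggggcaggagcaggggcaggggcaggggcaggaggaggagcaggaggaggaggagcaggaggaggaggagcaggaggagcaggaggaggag
Near Csnk1e: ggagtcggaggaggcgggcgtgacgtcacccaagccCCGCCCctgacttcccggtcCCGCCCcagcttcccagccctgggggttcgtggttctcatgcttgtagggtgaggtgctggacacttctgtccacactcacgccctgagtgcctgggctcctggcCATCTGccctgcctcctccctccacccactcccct
Dupd1 intron: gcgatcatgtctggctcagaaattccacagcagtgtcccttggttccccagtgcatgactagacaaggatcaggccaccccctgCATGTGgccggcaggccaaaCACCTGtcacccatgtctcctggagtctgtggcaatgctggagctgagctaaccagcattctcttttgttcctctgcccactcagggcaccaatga
Akap2 intron: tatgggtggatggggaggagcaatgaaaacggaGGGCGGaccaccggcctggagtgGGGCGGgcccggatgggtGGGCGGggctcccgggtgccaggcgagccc

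The Zfp827 sequence, at chr8:79046726-79046925, holds a pair of adjacent E-boxes, and the Dapk2 sequence, at chr9:66205813-66206012, holds none of any kind. The Aida sequence, at chr1:183309701-183309900, carries CACCTG in 3 copies of a tandem unit. The Brwd3 sequence, at chrX:108747676-108747875, is masked as repeat over all 200 bases. The sequence near Csnk1e, at chr15:79455580-79455775, holds 2 GC boxes and 1 E-box. That of Dupd1, at chr14:21683901-21684100, holds CATGTG and CACCTG, and that of Akap2, at chr4:57782076-57782179, holds 3 GC boxes in 104 bases.

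Neither-motif regions were shared by fewer libraries than the other distal regions. A peak was present in only 2 libraries at 274 of 483 (56.7%, 95% Wilson interval 52.3 to 61.1%), against 39.4% of E-box only regions, 48.8% of AP-1 only regions and 33.9% of regions with both motifs. All 6 libraries had a peak at 40 (8.28%, interval 6.14 to 11.1%), against 22.4%, 11.3% and 29.0%. The intervals cover counting error only, and regions of one genome share their libraries, so they are no test. A joined region can only widen as more libraries add peaks, and a wider one has more positions for a motif. The rule therefore ties the class to the number of libraries, and these shares are not given within classes of width. Read the other way, neither-motif regions made up 13.7% of distal regions with a peak in 2 libraries (274 of 2002) and 3.47% of those with a peak in all 6 (40 of 1154).

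**Figure D1:**
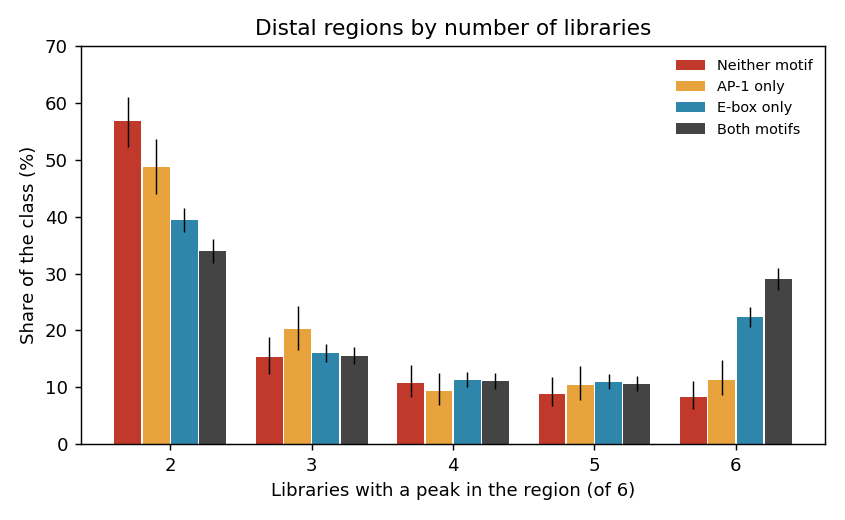
Share of each class of distal regions (%, vertical axis) by the number of libraries with a peak in the region (horizontal axis), with 95% Wilson intervals as bars. The neither-motif class has the highest share at 2 libraries, 56.7%, and the lowest at 6 libraries, 8.28%.

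Of the 274 regions seen in 2 libraries, 264 paired +dox replicate 3 with another list. The most frequent pair was no dox replicate 3 with +dox replicate 3, which gave 132 regions, followed by no dox replicate 2 with +dox replicate 3, which gave 55. Pairs that did not involve +dox replicate 3 gave 10 regions in all. This was not particular to the class. Over all distal regions seen in 2 libraries, 1967 of 2002 involved +dox replicate 3, and 1167 were the pair of no dox and +dox replicates 3. For AP-1 only regions it was 198 of 198. Regions in the 2-library set were thus mostly regions that the longest list shared with 1 of the shorter ones. At the edge of the rule, 5609 distal regions without either motif had a peak in 1 library, 4971 of them in +dox replicate 3, with a median height percentile of 31.8 there against 60.2 for the regions seen in 2 libraries. Distal regions of all classes with a peak in 1 library numbered 17471, 15976 of them in +dox replicate 3. Those without either motif were 32.1% of the 17471, against 13.7% of distal regions seen in 2 libraries. Their median width was 700 bp, against 1050 bp for neither-motif regions seen in 2 libraries, and a narrower region has fewer positions for a motif.

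Width separated the classes as well. The median neither-motif region spanned 1050 bp, with an interquartile range of 850 to 1350 bp and extremes of 150 and 3450 bp. E-box only regions had a median of 1300 bp, AP-1 only regions 1150 bp and regions with both motifs 1450 bp. A longer interval has more positions at which a motif can occur, so the rule itself ties the class to width. Neither-motif regions were 15.4% of distal regions of at least 500 but under 1000 bp (171 of 1113), 9.04% of those of at least 1000 but under 2000 bp (281 of 3107) and 2.10% of those of 2000 bp or more (17 of 809).

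Library by library, peaks were called at 24.4%, 42.2% and 55.9% of the neither-motif regions in no dox replicates 1, 2 and 3. In +dox replicates 1, 2 and 3 the shares were 34.4%, 42.7% and 97.1%. The +dox replicate 3 stands apart, and the other +dox libraries lie inside the range of the no dox libraries. E-box only regions were called more often than neither-motif regions in 6 of 6 libraries, at 36.6% to 98.9%.

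**Figure D2:**
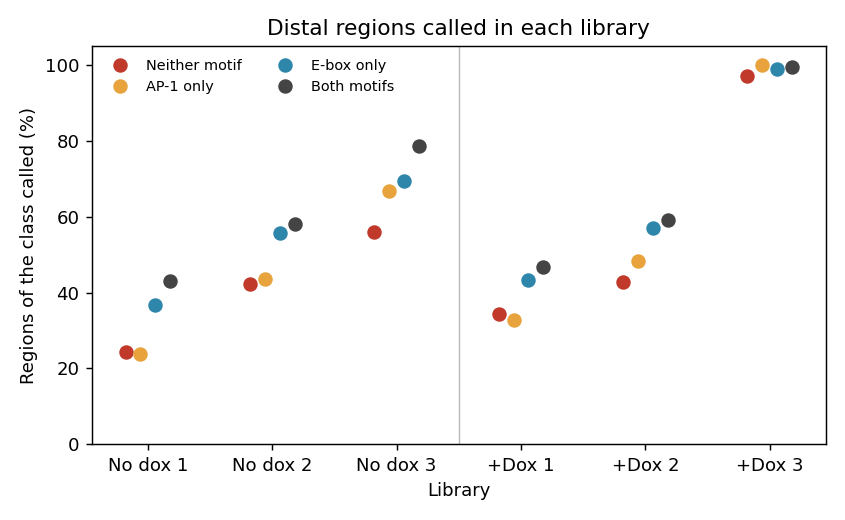
Percentage of each class of distal regions with a peak in each library (vertical axis), 3 no dox libraries left of the line and 3 +dox libraries right of it, 1 point per class. Neither-motif regions range from 24.4% to 97.1% and lie below E-box only regions in every library.

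The neither-motif share of the distal regions that a library called was 6.30%, 7.41% and 7.45% without dox and 7.64%, 7.30% and 9.36% with dox. The groups overlap. No dox libraries averaged 7.06% ± 0.653 (SD, n = 3) and +dox libraries 8.10% ± 1.10 (SD, n = 3), a difference of 1.04 percentage points that did not pass the test (exact two-sided permutation test, p = 0.3, adjusted p = 0.3 over 9 tests). With 3 libraries against 3 the smallest p is 0.1, and the labels call the replicates biological without saying what kept them separate.

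Call patterns leaned towards +dox, as they did over all distal and all kept regions. More +dox than no dox libraries had a peak at 172 neither-motif regions (35.6%), more no dox libraries at 43 (8.90%), and equal numbers at 268 (55.5%). Over all distal regions the shares were 29.3%, 11.6% and 59.1%, and over all kept regions 39.6%, 8.24% and 52.2%. Regions called in 2 +dox libraries alone all involved the long list of +dox replicate 3, 23 with replicate 1 and 41 with replicate 2. A peak in 3 of 3 libraries with dox, and in 0 of 3 without, was found at 19 neither-motif regions (3.93%). The background, the same pattern over all 18773 kept regions, was 3.38%, and over all distal regions it was 2.59%. E-box only regions stood at 3.16%, AP-1 only at 3.45% and both-motif regions at 1.51%, with no test run. The reverse pattern was found at 0 neither-motif regions against a background of 0.0266%. The 19 depended on the lists: with lists of equal length 1 region had this pattern, and leaving out 1 library gave 22 to 61.

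Peak height was compared as a percentile, the rank of a peak's maximum signal within its own list, where 100 is the tallest. The median height percentile of neither-motif regions was 43.0, 44.9 and 38.6 in no dox replicates 1, 2 and 3 and 40.6, 48.9 and 73.2 in +dox replicates 1, 2 and 3. Only +dox replicate 3 is far from the others. The other distal classes were highest there too, at 84.8 (E-box only), 83.1 (AP-1 only) and 89.3 (both motifs). No dox libraries averaged 42.2 ± 3.24 (SD, n = 3) and +dox libraries 54.2 ± 17.0 (SD, n = 3), and the difference of 12.1 was smaller than the +dox spread (exact two-sided permutation test, p = 0.3, adjusted p = 0.3). Without +dox replicate 3 it was -1.72. Ranks run over a whole list, but a kept region needs a peak in a second library. The list of +dox replicate 3 held 15976 distal regions seen in no other library. Those without either motif had a median height percentile of 31.8, so the keep rule itself leaves out low ranks of that list. The group test cannot tell this from a change with dox.

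Within a library, the peaks of neither-motif regions ranked below those of the other distal classes in most comparisons, although none passed the adjusted test. Against E-box only regions the differences in median percentile were -18.5, -15.8 and -22.6 without dox and -12.2, -5.53 and -11.6 with dox. All 6 were negative, with a mean of -14.4 ± 5.95 (SD, n = 6). Against regions with both motifs all 6 were negative too, between -27.4 and -11.6, with a mean of -17.8 ± 5.89 (SD, n = 6). Against AP-1 only regions 5 of 6 were negative, with a mean of -6.84 ± 6.20 (SD, n = 6), and +dox replicate 2 went the other way at 1.96.

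Exact two-sided sign-flip tests over the 6 libraries gave p = 0.031 for the E-box only and both-motif comparisons, which is the smallest p that 64 sign patterns allow, and p = 0.0625 for AP-1 only. Adjusted over 9 tests these became 0.0703, 0.0703 and 0.0804, and none passed 0.05. Within classes of region width the mean differences were -12.7 against E-box only, -15.5 against both motifs and -7.15 against AP-1 only, each with an adjusted p of 0.0469. These tests take the 6 libraries as 6 independent values. With differences averaged over libraries of the same number, an exact sign-flip over 3 values gave p = 0.25, the smallest it can give, and an adjusted p of 0.321 for each of the 3 classes, with and without the classes of width. No difference could pass 0.05 in that test.

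**Figure D3:**
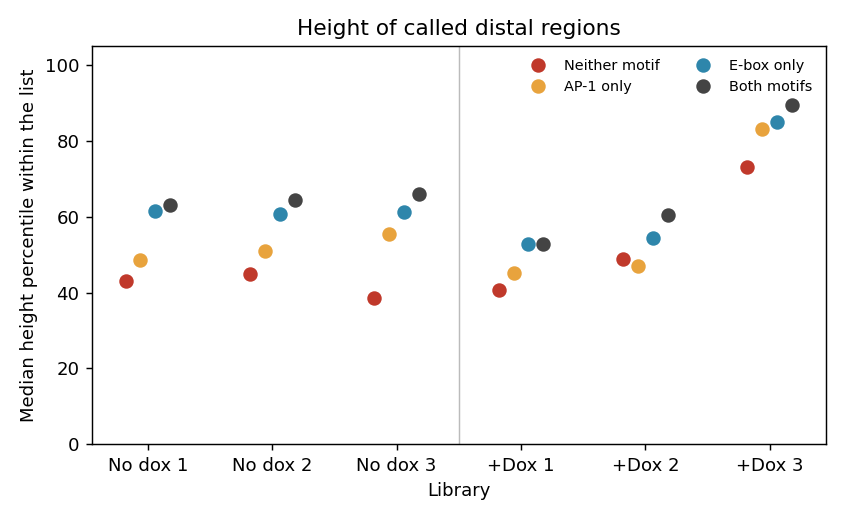
Median height percentile of called distal regions in each library (vertical axis, 0 lowest and 100 tallest in the list), 3 no dox libraries left of the line and 3 +dox libraries right of it, 1 point per class. Neither-motif regions lie below E-box only regions in all 6 libraries and at 73.2 in +dox replicate 3.

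The maximum signal, coverage scaled to library size (CPM), was compared between groups over the 4838 kept regions with a peak in all 6 libraries, of which 40 were neither-motif regions. The median log2 difference, +dox minus no dox, was 1.07 over these 40 and 0.91 over all 4838, and 39 of the 40 values were above 0, from -0.20 to 1.77. Without pairing, limma called 0 of the 40 and 0 of the 4838 (background 0.0%), although 14 of the 40 and 1158 of the 4838 had an unadjusted p below 0.05. Libraries that carry the same number deviated from their groups together, with correlations of 0.485, 0.267 and 0.628, so the numbers were taken to pair the libraries. Libraries with different numbers gave 0.265 and 0.219 among replicates 1 and 2, and -0.560 to -0.321 where 1 of the libraries was a replicate 3, so replicates 1 and 2 are told apart less clearly than replicate 3. With the replicate number as a block, limma called 24 of the 40 higher and 0 lower, beside a background of 52.0% higher and 0.103% lower.

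CPM carries no spike-in scale, and the block calls were made on values that include the shift of all regions. When each library was centred on its own median, with the block kept, 0 of the 40 were called, beside a background of 0.0% higher and 0.0207% lower, and their median log2 difference was 0.14 with 25 of 40 above 0. The calls thus depended on the scaling: relative to the shift of all regions, no neither-motif region passed the test. Leaving out +dox replicate 3 without the block gave 20 of 50 called, all higher, beside a background of 39.0% higher and 0.103% lower among 4871 regions.

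The strongest neither-motif region lay in an intron of Celf2, which encodes an RNA-binding regulator of splicing, at chr2:6871851-6873450. Its maximum signal was 50.3, 46.1 and 11.1 CPM in no dox replicates 1, 2 and 3 and 204, 99.0 and 42.3 CPM in +dox replicates 1, 2 and 3. All +dox values but that of replicate 3 exceed every no dox value. The log2 difference was 1.68 ± 0.68 (SE) with an adjusted p of 0.208 in limma without the block, 8.57e-06 with it, and 0.76 with an adjusted p of 0.201 once centred with the block. Its centre is 11619 bp from the nearest start in the GENCODE basic set, but 54 bp from a start in the full GENCODE set and 18 bp from one in RefSeq. The 200 bp at its maximum had a GC content of 79.5%, 6 GC boxes and 3 E-boxes of another centre.

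The next strongest lay between genes at chr5:111877001-111878450, with 14.9, 14.2 and 13.3 CPM without dox and 45.3, 27.2 and 19.2 CPM with dox. Its groups do not overlap, and its log2 difference was 1.02 ± 0.56 (SE, adjusted p = 0.223 in limma, 0.0131 with the block and 0.919 centred with the block). The region in Zfp827, a zinc-finger gene, read 12.6, 10.8 and 17.1 CPM without dox and 22.3, 14.5 and 68.5 CPM with dox. There +dox replicate 2 falls within the no dox range. The region in Dapk2, a calmodulin-regulated kinase, read 16.8, 13.5 and 4.29 CPM without dox and 40.8, 25.02 and 14.4 CPM with dox, and that in Aida read 11.2, 15.8 and 9.43 CPM without dox and 11.9, 25.02 and 16.7 CPM with dox. The groups overlap in both.

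The regions with a peak in every +dox library and in none without dox had lower values. The tallest by rank, in an intron of the bromodomain gene Brwd3, read 20.2, 8.34 and 7.97 CPM in +dox replicates 1, 2 and 3, and the region 13649 bp from the start of Csnk1e, a casein kinase gene, read 19.5, 10.01 and 4.73 CPM. The region in Ptch1, the Hedgehog receptor, at chr13:63552351-63553050, read 8.02, 10.6 and 3.49 CPM. Its maximum holds 1 E-box of another centre and 1 GC box. The region in Dupd1, a dual-specificity phosphatase, read 6.28, 8.34 and 5.48 CPM, and the region in Akap2, a kinase anchor, read 11.9, 8.34 and 1.74 CPM. The Csnk1e region lay 85 bp and the Akap2 region 4 bp from a start in the full GENCODE set, so these distal regions sit at starts that the basic set leaves out. No dox lists hold no value for these regions, so no fold is given.

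Such unlisted starts were more frequent near neither-motif regions than near the other distal classes, with no test run. A start in the full GENCODE set or in RefSeq lay within 1 kb of the centre of 52 regions (10.8%), against 6.80% of E-box only, 5.91% of AP-1 only and 5.37% of both-motif regions. Among the 40 seen in all 6 libraries the count was 7 (17.5%). Within 10 kb, the distance of the rule, such a start lay near 185 neither-motif regions (38.3%), against 32.2% of all distal regions. For the 40 it was 16 (40%). Under these fuller annotations those regions would not count as distal. Under the basic set the median distance to a start was 23581 bp, against 24580 bp for all distal regions. By place, 229 (47.4%) were centred in introns of protein-coding genes, 211 (43.7%) between genes, 39 (8.07%) in introns of non-coding genes, 2 in UTRs and 2 in non-coding exons. Over all distal regions introns of protein-coding genes took 50.1% and intergenic sequence 43.5%. Near the 10 kb limit, 24 neither-motif regions lay 10 to 11 kb from a start, and 35 regions that met every other criterion lay 9 to 10 kb away.

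The DNA under the maxima was rich in G and C. Mean GC content of the 200-bp window at the maximum was 56.4% ± 7.51 (SD over 483 regions), against 55.03% in E-box only, 53.6% in AP-1 only and 53.9% in both-motif regions. Windows moved 10 kb to either side of the neither-motif regions had 46.7%. GC content was higher with more libraries, from 54.6% in the 274 regions seen in 2 libraries and 58.2% in the 169 seen in 3 to 5, to 61.4% in the 40 seen in 6. Windows with at least 55% GC and an observed over expected CpG of 0.6 or more numbered 45 (9.32%), against 4.11%, 2.71% and 1.56% in the E-box only, AP-1 only and both-motif regions. They were 12 of the 40 seen in all 6 libraries (30%). Starts, GC content and motifs were split by number of libraries in this class only. No such trend is thus shown to be particular to it.

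Measured at each library's own maxima, neither-motif regions exceeded E-box only regions in GC content by 1.80, 2.23 and -0.26 percentage points in no dox replicates 1, 2 and 3 and by 2.54, 2.47 and 1.28 in +dox replicates 1, 2 and 3. No dox replicate 3 is the exception, and the mean was 1.68 ± 1.06 (SD, n = 6). Against AP-1 only regions all 6 differences were positive, from 1.02 to 4.43, with a mean of 2.85 ± 1.21 (SD, n = 6). Exact two-sided sign-flip tests gave p = 0.0625 and 0.031, adjusted to 0.0804 and 0.0703, so neither passed.

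Repeats were also more frequent than in the other distal classes, again without a test. At least 50% of the window was masked as repeat in 34 neither-motif regions (7.04%), against 1.42% of E-box only, 3.94% of AP-1 only and 1.42% of both-motif regions. In windows moved by 10 kb the share was 18.01%. The whole window was repeat in 20 (4.14%), which are 20 of the 31 such regions among all 5057. By library the share with at least 50% repeat lay between 4.81% and 11.02% for neither-motif regions and between 0.744% and 1.91% for E-box only regions. For AP-1 only regions it reached 5.90% in no dox replicate 3, above the 4.81% of neither-motif regions there, and was below that of neither-motif regions in the other 5 libraries. Reads in repeats can have several places in the genome, and the part of this in the peaks was not tested.

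E-boxes with another centre were common but close to the background. At least 1 CANNTG whose centre is not GC, on either strand, lay in the windows of 315 of 483 regions (65.2%, interval 60.9 to 69.3%), against 64.8% of windows moved by 10 kb, 66.3% of E-box only and 75.9% of AP-1 only regions. Individual centres differed. CAGGTG or CACCTG, a form bound by many helix-loop-helix and zinc-finger factors, was found in 114 (23.6%). It was in 16.6% of moved windows, 19.5% of all distal, 18.5% of E-box only, 25.1% of AP-1 only and 18.6% of both-motif windows. CAGATG or CATCTG was found in 110 (22.8%), against 15.0% of moved windows, 23.4% of all distal windows and 29.6% of AP-1 only windows. CACATG or CATGTG went the other way, at 55 (11.4%) against 18.4% of moved windows.

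At each library's own maxima the share with an E-box of another centre was 62.7%, 62.3% and 64.8% in no dox replicates 1, 2 and 3 and 61.4%, 62.1% and 69.1% in +dox replicates 1, 2 and 3. It was below that of E-box only regions in 5 of 6 libraries, with a mean difference of -2.29 ± 1.81 percentage points (SD, n = 6, exact two-sided sign-flip p = 0.0625, adjusted p = 0.0804). It was below that of AP-1 only regions in 6 of 6 libraries, with a mean difference of -11.8 ± 3.53 (SD, n = 6, exact sign-flip p = 0.031, adjusted p = 0.0703). The nearest CAGCTG outside the interval was a median of 737 bp from its edge and within 100 bp for 41 regions (8.49%), and the nearest AP-1 heptamer was a median of 2101 bp away, with no background distance computed.

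GC boxes were more frequent than in the other distal classes, a difference given here with counting intervals and no test. GGGCGG or CCGCCC, bound by SP and KLF factors and frequent at promoters, lay in 93 windows (19.3%, interval 16.0 to 23.0%), against 11.8% of E-box only, 6.65% of AP-1 only, 9.32% of both-motif and 4.24% of moved windows. Over all kept regions, promoters included, the share was 35.4%. In regions seen in all 6 libraries it was 13 of 40 (32.5%). By library, neither-motif regions had the highest share of the 4 distal classes in 6 of 6 libraries, from 10.4% in no dox replicate 3 to 33.7% in +dox replicate 1, where E-box only regions had 9.33% and 19.4%. In bins of 50 bp the share reached 7.87% just beside the maximum and was 3.31% in the bin 200 to 250 bp away, while moved windows stayed at or below 1.45% within 250 bp. GC content differs between these sets, as given above, and its part in the box counts was not tested.

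**Figure D4:**
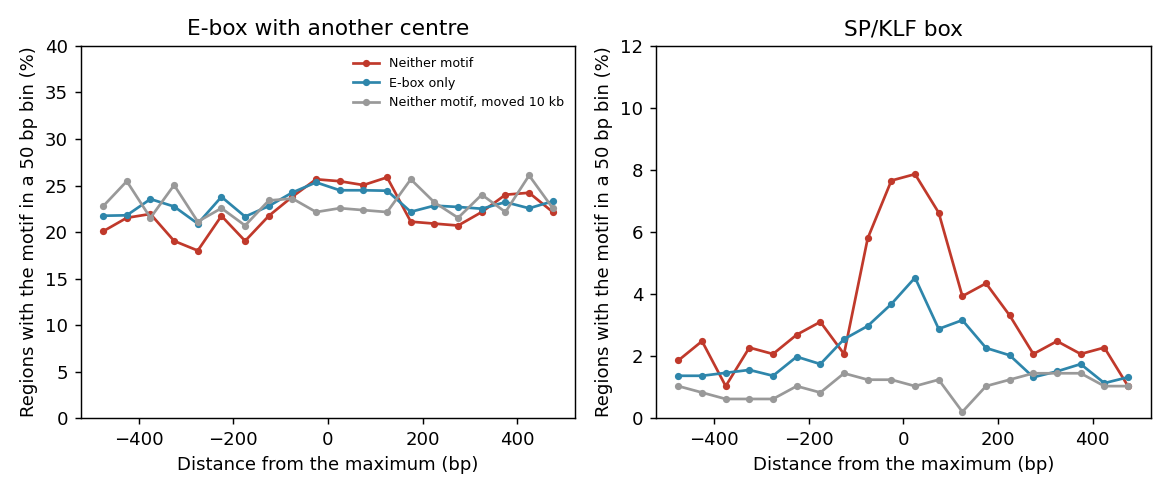
Percentage of regions with an E-box of another centre (left) or an SP/KLF GC box (right) in each 50-bp bin (vertical axis) by distance from the maximum in bp (horizontal axis). The lines are neither-motif regions, E-box only regions and neither-motif regions moved by 10 kb. The GC box rises to 7.87% beside the maximum in neither-motif regions, and the E-box line stays between 18.01% and 25.9%.

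Motifs of other factors were searched as exact strings on both strands of the same windows. The NFI motif TTGGCA was found in 15.7%, against 9.32% of moved windows and 17.4% of all distal windows. GGAATG, the core bound by TEAD factors, was found in 15.1%, against 9.73% and 16.0%, and TGTGGT, bound by RUNX factors, in 20.7%, against 16.4% and 23.5%. All 3 were thus above the moved windows and below the distal average. The MEF2 motif, bound by muscle factors that work with MyoD1, was found in 2 windows (0.414%), against 2.59% and 1.38%. The CTCF core was found in 3 (0.621%). The CCAAT box, bound by NF-Y, was found in 19.3%, against 24.8% of moved windows and 18.9% of all distal windows. In regions seen in all 6 libraries it was 14 of 40 (35%, interval 22.1 to 50.5%).

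Chromosome 8 held more neither-motif regions than any other, 71 of 483 (14.7%), against 8.35% of the other distal regions and 4.91% of genome length. Most of this came from 1 stretch, chr8:80000001-95000000, with 45 neither-motif regions (9.32%), against 3.87% of E-box only, 3.69% of AP-1 only and 2.34% of both-motif regions. All lists were dense there. Peaks per megabase were 3.68 to 8.38 times those of the rest of the genome across the 6 libraries. Of the 45 regions, 37 had a peak in 2 libraries and 0 in all 6, against 237 and 40 of the 438 elsewhere. In +dox replicate 3 their median height percentile was 44.8, against 75.3 elsewhere. The copy number of this stretch in the line was not measured here, and its part in the density was not tested.

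Within the stretch, Cacna1a, the pore subunit of the P/Q-type calcium channel, was the nearest protein-coding gene to 8 regions, the most for any gene. In 1 of them, at chr8:84509401-84510700, no dox replicates 2 and 3 had a peak, at 4.06 and 2.14 CPM, and 0 of 3 +dox libraries had one. Of the 483 neither-motif regions, 5 were called without dox alone, each in 2 libraries, which is 1.04% of them, beside 0.356% of all distal regions and a background of 0.677% of all kept regions. This difference was not tested. The other 2 of the tallest 3 lay in a UTR of Tm9sf4 at chr2:153209001-153210650, at 3.72 and 3.00 CPM in no dox replicates 1 and 3, and in an intron of Anks1 at chr17:28045351-28046500, at 4.65 and 3.16 CPM in no dox replicates 1 and 2.

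**Figure D5:**
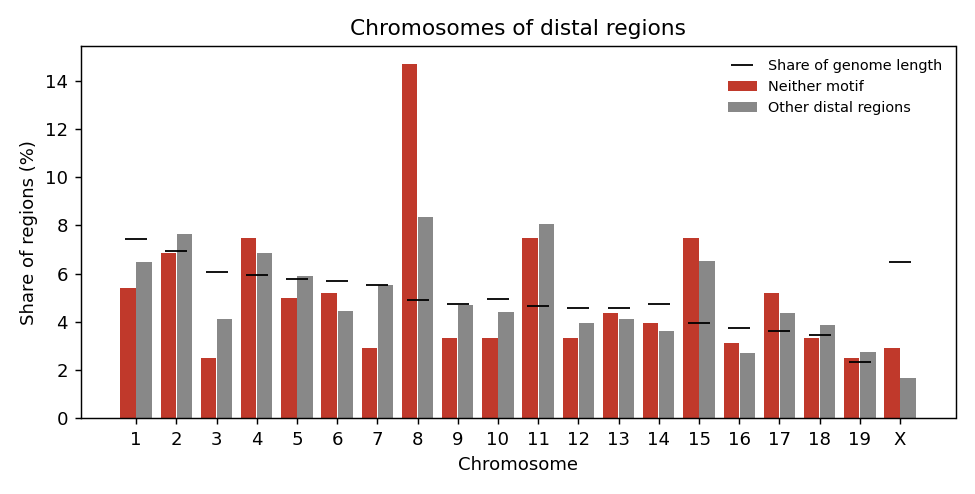
Share of neither-motif regions and of all other distal regions on each chromosome (%, vertical axis), with the share of genome length as a dash. Chromosome 8 holds 14.7% of neither-motif regions, 8.35% of other distal regions and 4.91% of genome length.

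The regions were spread over 421 nearest protein-coding genes, 372 of them with 1 region. Of 214 genes in 10 lists that fit muscle and its neighbouring lineages, 18 were the nearest gene to 22 neither-motif regions (4.55%), against 4.98% of all distal regions. The share was thus about that of distal regions as a whole. No region lay nearest to a listed AP-1 factor or neuronal gene. These lists took only 0.218% and 0.0989% of all distal regions, so an absence among 483 regions says little.

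Among myogenic factors and partners, 4 of 24 genes had a neither-motif region nearest to them, and Runx1, a partner factor of the RUNX family, was one. Its region, in its intron at chr16:92677901-92679400, was called in 3 libraries and was low, at 1.86 CPM in no dox replicate 1 and 2.22 and 0.996 CPM in +dox replicates 2 and 3. None of the 4 genes had a region seen in all 6 libraries.

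The sarcomere list had 2 of 33 genes. The region nearest Tpm1, which encodes tropomyosin, lay 16995 bp from its start. It read 4.29 CPM in no dox replicate 3 and 3.49 CPM in +dox replicate 3. That nearest Myom2, the M-band protein, lay 201723 bp from its start, in an intron of the non-coding gene Gm7706. The Myom2 region read 1.71 and 1.74 CPM in the same libraries, and its window was 90.5% repeat. The fusion and neuromuscular junction list had 1 of 19 genes, Jam3, a junctional adhesion molecule, with 4.45 and 1.25 CPM in +dox replicates 2 and 3. The excitation-contraction list had 1 of 16, Cacna2d1, a calcium channel subunit, whose intron at chr5:15971751-15972800 was called in 4 libraries, at 3.61 and 10.7 CPM in no dox replicates 2 and 3 and 11.1 and 13.4 CPM in +dox replicates 2 and 3.

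Adhesion and matrix genes had the most, with 7 regions nearest to 4 of 27 genes: Col5a1, Itga3, Itgb5 and Ncam1. The share was 1.45%, against 0.969% of all distal, 0.802% of E-box only, 1.72% of AP-1 only and 0.878% of both-motif regions. No test was run. The region nearest Col5a1, a fibrillar collagen gene, lay 41399 bp from its start, at chr2:27844401-27845650. It was called in all 6 libraries, at 3.72, 4.52 and 5.57 CPM without dox and 5.58, 8.34 and 19.2 CPM with dox. Its groups do not overlap, though the nearest values were almost equal, and its log2 difference was 1.08 ± 0.58 (SE, adjusted p = 0.219 in limma, 0.0269 with the block and 0.895 centred with the block). The region nearest Ncam1, a neural and muscle adhesion molecule, lay 86076 bp from its start. It was called in 5 libraries, at 5.12, 3.61 and 2.57 CPM without dox and 10.6 and 11.2 CPM in +dox replicates 2 and 3.

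The cell cycle list had 2 of 15 genes, Ccne1 and Myc. The region nearest Ccne1, which encodes cyclin E1, lay 22208 bp from its start, at chr7:38084651-38086000, and was called in all 6 libraries. It read 6.98, 4.52 and 1.71 CPM without dox and 25.1, 12.2 and 5.98 CPM with dox, with a log2 difference of 1.70 ± 0.64 (SE, adjusted p = 0.208 in limma, 0.000758 with the block and 0.383 centred with the block). Replicate 3 was the lowest of both groups, the groups overlap, and each +dox value is above the no dox value of its own number. Its maximum had 4 GC boxes and a GC content of 69.5%. The region nearest Myc, 149729 bp from the Myc start in an intron of the non-coding gene Pvt1, was called in 2 libraries. It read 2.14 and 0.996 CPM.

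Signalling genes had 2 of 31, Hes1 and Smad7, each with a region called in 2 libraries at no more than 2.57 CPM. The Hes1 region lay 36614 bp from its start, and the Smad7 region 87075 bp, in an intron of Ctif. The signalling list took 0.414% of neither-motif regions, against 1.21% of all distal regions, with no test run. Genes of other mesenchymal lineages had 2 of 18. The region nearest Cebpb, an adipocyte factor, lay 38511 bp from its start and was called in 5 libraries. It read 5.58 and 4.52 CPM in no dox replicates 1 and 2 and 19.5, 11.1 and 3.49 CPM with dox. The region nearest Sox9, a cartilage factor, lay 321227 bp from its start, in an intron of a non-coding gene. It was called in 5 libraries, at 2.79, 7.68 and 9.86 CPM without dox and 5.56 and 17.4 CPM in +dox replicates 2 and 3. The groups overlap at both.

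Neither-motif regions were not far from regions with the preferred motif. An E-box region lay within 10 kb of 187 (38.7%), against 36.5% of E-box only, 35.7% of AP-1 only and 34.5% of both-motif regions, and the median distance was 15.4 kb against 17.4 kb for all distal regions. When bins of 5 Mb with 10 or more neither-motif regions, all on chromosome 8, were removed, 438 of 4867 distal regions (8.999%) remained in the class.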

How the data were processed

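The authors aligned the CUT and RUN reads to mm10, scaled coverage to CPM, and called peaks in each library with SEACR in relaxed mode. The 6 deposited peak lists hold, per the authors' files, total signal and maximum signal in CPM, with intervals on a 50-bp grid. Lists hold no depth. Maximum signals were whole multiples (tolerance 0.05) of 1 step per list, which gave the depth in alignments. Wild-type libraries were not analysed here.

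The regions, gene lists and tests were chosen with earlier results of these data known. Starts were taken from the GENCODE vM21 basic set, repeats from the soft-masked GRCm38 RefSeq sequence, and the full GENCODE and RefSeq starts were used as a check. Group means were compared by exact permutation over 20 assignments, and within-library differences by exact sign-flip over 64 patterns. The 9 tests were adjusted together (Benjamini-Hochberg). log2 maximum signal was fitted with limma 3.58.1 (trend) in R 4.3.3 and adjusted over 4838 regions. The fit was tested on simulated data. The replicate numbers were taken to pair libraries since every same-number correlation was above 0.1. With replicates 1 and 2 exchanged the correlations, 0.265 and 0.219, also exceed 0.1. This rule therefore cannot tell that pairing from the one used, and the blocked calls rest on the numbers. The blocked counts had already been seen when this was checked. Other steps used Python 3.11.15 and pandas 2.3.3.

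Regions named are the 5 with the highest mean height percentile among those called in all 6 libraries, the 5 highest among those called in every +dox and no other library, 3 called without dox only, and up to 2 per gene list by number of libraries. The region in Celf2 is shown without sequence because exons cover its maximum. No region passed the unblocked fit, so none was named for its change. Tried alternatives were each library left out, lists of equal length, 3 or more libraries, other distances, motif and sequence windows, total signal, region width, pairing, centring and filters. Removal of crowded 5 Mb bins, centring with pairing, and pairing of the within-library tests were added after the data were seen. A region that this rule names is not reported here.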

Additional observations from a re-analysis of the deposited data

Results flagged for a closer look

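The median height percentile of neither-motif regions was 73.2 in +dox replicate 3, far above the 38.6 to 48.9 of the other 5 libraries. The gap to the next library was 0.702 of the whole range, with the 6 libraries of both groups taken as 1 set. Chance flags about 1 in 20 such sets. This library also had the most peaks, 53661, and the greatest depth, 8030000 alignments. The part of list length in this value was not tested by itself, but with lists of equal length the difference between groups was 3.19 in place of 12.1. The keep rule also leaves out low ranks of the longest list, as given with the height percentiles. The other distal classes were also highest in +dox replicate 3, so the height there is not particular to neither-motif regions. E-box only regions stood at 84.8 (52.8 to 61.5 elsewhere), AP-1 only at 83.1 (45.3 to 55.3) and both-motif at 89.3 (52.8 to 66.0).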

How the results depend on the processing

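Of 183 recomputed values, 141 were counted as unchanged. For tested differences this means the same direction and side of the threshold, and for counts of regions a count equal or near to the main one. No tested value lost a call, since none was called. The 7 within-library differences in height, GC content and E-boxes of another centre passed an adjusted p of 0.0469 under some settings. The direction was the same as before in each. Differences in height percentile from E-box only, both-motif and AP-1 only regions became -15.5, -18.5 and -7.74 beyond 20 kb, -14.8, -18.9 and -7.12 beyond 5 kb, and -12.7, -15.5 and -7.15 within classes of width. The first 2 became -12.0 and -15.3 with lists of equal length and -11.5 and -14.6 with 3 or more libraries. Differences in GC content from E-box only and AP-1 only regions became 2.02 and 3.18 with equal lists, 2.19 and 3.28 with 3 or more libraries, 2.06 and 3.48 beyond 5 kb, 2.06 and 2.93 within classes of width, and 1.73 and 2.90 in windows of 250 bp on each side; beyond 20 kb the second became 2.48. Differences in E-boxes of another centre became -4.78 and -16.2 with equal lists, -4.70 and -16.2 with 3 or more libraries, -4.17 and -12.1 beyond 20 kb, and -5.05 and -8.86 in the 250-bp windows; against AP-1 only they became -12.6 beyond 5 kb and -12.0 within classes of width. In windows of 50 bp on each side these E-box differences did not pass. They were -0.21 from E-box only (exact sign-flip p = 0.8125) and -8.71 from AP-1 only regions (exact sign-flip p = 0.031, adjusted p = 0.0703). Each value that passed had an exact sign-flip p of 0.031, the smallest that 6 libraries allow. What that p adjusts to depends on how many of the 9 tests reach it together. The height differences from E-box only and both-motif regions had the same p in the main setting, where it adjusted to 0.0703. The first of these was -14.4 there, so an adjusted p of 0.0469 does not mark a larger difference.

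With 1 library left out, ranges were 0.676 to 1.35 points for the share of distal regions, -1.72 to 17.9 for the height percentile, reversed at -1.72 without +dox replicate 3, -16.3 to -11.9, -7.99 to -3.16 and -19.4 to -15.8 for height against E-box only, AP-1 only and both, 1.51 to 2.23 and 2.55 to 3.37 for GC content, and -4.24 to -2.03 and -12.8 to -10.6 for E-boxes of another centre. Regions called in every +dox and no other library numbered 1 with equal lists, 35 beyond 5 kb and 22 to 61 with 1 library left out, reaching 38, 61 and 43 without no dox replicate 2, +dox replicate 1 and +dox replicate 2, where fewer libraries have to match.

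The signal fit called 0 neither-motif regions and 0 regions in all, 24 and 2523 with the replicate block, 20 and 1903 without +dox replicate 3, and 0 and 1 when centred with the block, an alternative added after the data were seen. With 1 library left out the count lay between 0 and 20. Pairing left the share at 1.04 (exact sign-flip p = 0.5) and the height at 12.1 (p = 0.5), where 3 pairs cannot go below 0.25. Averaged over libraries of the same number, an alternative added after the data were seen, the 7 within-library differences had an exact sign-flip p of 0.25 and an adjusted p of 0.321, also within classes of width. With 3 values no setting can pass 0.05, so the calls at 0.0469 rest on taking the 6 libraries as independent. Depth limits what a missing peak means: lists share no floor.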
